A study of Homo sapiens with 4 samples.

Results

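Human precursor-B acute lymphoblastic leukemia was studied in 4 established lines by RNA sequencing, and 28 genes of cholesterol and fatty acid synthesis were examined among the 23,368 entries of the count table. The genes were chosen by symbol from known pathway membership, with earlier results of these data already known. They comprise 17 enzymes of the mevalonate and sterol pathway and 4 regulators or carriers of sterol. The other 7 are enzymes of fatty acid synthesis, elongation and desaturation. The translocation t(4;11), a fusion of MLL (KMT2A) with AFF1, is carried by RS4;11 and SEM, whereas the control lines NALM6 and REH are without it. All 4 lines were cultured in RPMI with fetal bovine serum, and each gave 1 library. A group was thus a pair of lines (n = 2), each derived from a different leukemia. Other lesions of these lines were not examined and may also differ between the groups. Each library sums RNA over a whole culture, so fewer expressing cells and less RNA per cell cannot be told apart.

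Cholesterol is built from acetyl-CoA through mevalonate, the isoprenoid farnesyl diphosphate, squalene and lanosterol. Fatty acids are built from acetyl-CoA and malonyl-CoA and are then elongated and desaturated. Both pathways are controlled by the sterol regulatory element-binding proteins (SREBPs), membrane-bound transcription factors that are released when sterol in the endoplasmic reticulum is low. SREBP-2, encoded by SREBF2, mainly drives sterol genes, and SREBP-1, encoded by SREBF1, mainly drives fatty acid genes. Dividing lymphoid blasts use both pathways to make membranes.

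The libraries held between 33,620,574 and 84,212,986 gene counts, and no member had fewer than 363 counts in any line. Levels are given in CPM, a line's counts scaled by its total to a common library size. The summed CPM of 8 B-precursor markers lay between 1211 (SEM) and 2440.3 (NALM6). Of the 8, 7 had at least 9.73 CPM in every line, while VPREB1 had 0.226 CPM in REH. SEM was the lowest line for CD79B (9.73 CPM) and IGLL1 (27.1 CPM). The T-cell receptor genes CD3D, CD3E and CD3G had 0 counts in all 4 lines. A list of 6 T and NK markers summed to 26.1 CPM in RS4;11 and 11.1 in SEM, compared with 0.959 in NALM6 and 1.51 in REH, nearly all of it from NKG7. Markers of the main lipid-making tissues were close to absent, since 6 hepatocyte markers summed to at most 1.07 CPM and 6 adipocyte markers to at most 1.05 CPM. In 6 myeloid markers the sum lay between 14.5 and 48.7 CPM, with ELANE at 0 in all lines. In 6 stromal markers it lay between 7.25 and 104 CPM, with COL1A2, DCN and LUM at 0 and nearly all of it from PDGFRB. The part of these markers in the results below was not tested. The sums of 10 proliferation genes were close, at 5147 CPM in RS4;11 and 4756 in SEM, compared with 5139 in NALM6 and 4808 in REH.

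Promoters are shown for 5 genes to set windows with different known motifs side by side: a sterol response element in SREBF2, a pair of CCAAT boxes in HMGCS1, several in MSMO1, an E-box in INSIG1 and none of these in PMVK. RefSeq windows of 250 bases before to 50 after the start site (GRCh38.p14) were matched by symbol for 24 of the 28 genes. The search held no windows for FDFT1, SQLE, ACAT2 and FASN, so the promoters of these genes were not examined. Their absence here does not show that RefSeq lacks start sites for them. Capitals mark the sterol response element TCACNCCAC, the NF-Y box CCAAT and the E-box TCACGTGA, each on either strand, and the sequences run 5′ to 3′ along the gene. The windows lie at chr22:41832855-41833154 (plus strand) for SREBF2, chr5:43313363-43313662 (minus strand) for HMGCS1, chr4:165327419-165327718 (plus strand) for MSMO1, chr7:155297628-155297927 (plus strand) for INSIG1 and chr1:154936670-154936969 (minus strand) for PMVK.
SREBF2: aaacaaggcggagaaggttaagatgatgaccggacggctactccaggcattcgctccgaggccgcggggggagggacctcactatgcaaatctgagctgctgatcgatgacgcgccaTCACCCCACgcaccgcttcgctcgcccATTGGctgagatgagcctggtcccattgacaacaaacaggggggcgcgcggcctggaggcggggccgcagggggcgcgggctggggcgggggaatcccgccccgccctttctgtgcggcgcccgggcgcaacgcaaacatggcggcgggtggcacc
HMGCS1: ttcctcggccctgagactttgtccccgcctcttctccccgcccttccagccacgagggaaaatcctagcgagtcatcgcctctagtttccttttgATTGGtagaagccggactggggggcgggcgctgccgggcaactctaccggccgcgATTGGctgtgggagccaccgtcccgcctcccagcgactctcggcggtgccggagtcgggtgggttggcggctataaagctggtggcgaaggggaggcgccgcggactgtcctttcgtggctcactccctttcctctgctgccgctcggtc
MSMO1: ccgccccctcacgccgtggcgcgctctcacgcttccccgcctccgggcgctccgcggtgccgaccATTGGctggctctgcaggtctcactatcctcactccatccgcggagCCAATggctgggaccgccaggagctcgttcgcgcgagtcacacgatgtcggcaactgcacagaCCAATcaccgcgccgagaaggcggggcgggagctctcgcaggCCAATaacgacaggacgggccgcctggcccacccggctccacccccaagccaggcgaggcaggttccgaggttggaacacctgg
INSIG1: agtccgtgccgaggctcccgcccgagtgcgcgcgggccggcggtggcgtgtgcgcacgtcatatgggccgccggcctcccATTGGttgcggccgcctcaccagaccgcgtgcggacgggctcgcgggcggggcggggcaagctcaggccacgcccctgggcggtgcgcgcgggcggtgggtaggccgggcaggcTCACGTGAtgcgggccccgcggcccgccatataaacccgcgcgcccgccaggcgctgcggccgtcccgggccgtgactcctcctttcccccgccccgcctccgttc
PMVK: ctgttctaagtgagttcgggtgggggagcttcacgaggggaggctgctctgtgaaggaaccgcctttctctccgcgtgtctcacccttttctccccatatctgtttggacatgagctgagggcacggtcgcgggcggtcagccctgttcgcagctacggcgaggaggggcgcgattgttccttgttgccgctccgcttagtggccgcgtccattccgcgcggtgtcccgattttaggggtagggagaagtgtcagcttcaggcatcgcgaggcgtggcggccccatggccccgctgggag

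CCAAT was found in at least 1 window of 19 of the 24 genes (79.2%), against 43.3% of the 9605 expressed genes with a window. The Sp1 box GGGCGG was found in 23 of the 24 genes (95.8%), against 75.4%. In the form TCACCCCAC the sterol response element was found only in SREBF2 among the 24 genes, 133 bases before its start site (4.17%, against 0.604%). The looser TCACNCCAC found no further gene (against 1.53%). The E-box CACGTG was found in INSIG1 and LSS (8.33%, against 12.5%), and its longer form TCACGTGA in INSIG1 alone (4.17%, against 2.19%). CCAAT occurs 4 times in the MSMO1 window, and none of the capitalised motifs occurs in the PMVK window. HMGCS1 has another RefSeq start site with a window of its own, not shown, that holds no CCAAT. CYP51A1, ELOVL6, FADS1 and SREBF1 also lacked CCAAT. Each motif was searched on both strands. Every match of TCACCCCAC is also one of TCACNCCAC, and every TCACGTGA holds a CACGTG. A match is a description of the letters only. Other spellings of these motifs and sites outside the windows were not searched, so a gene without a match may still hold one.

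**Figure D1:**
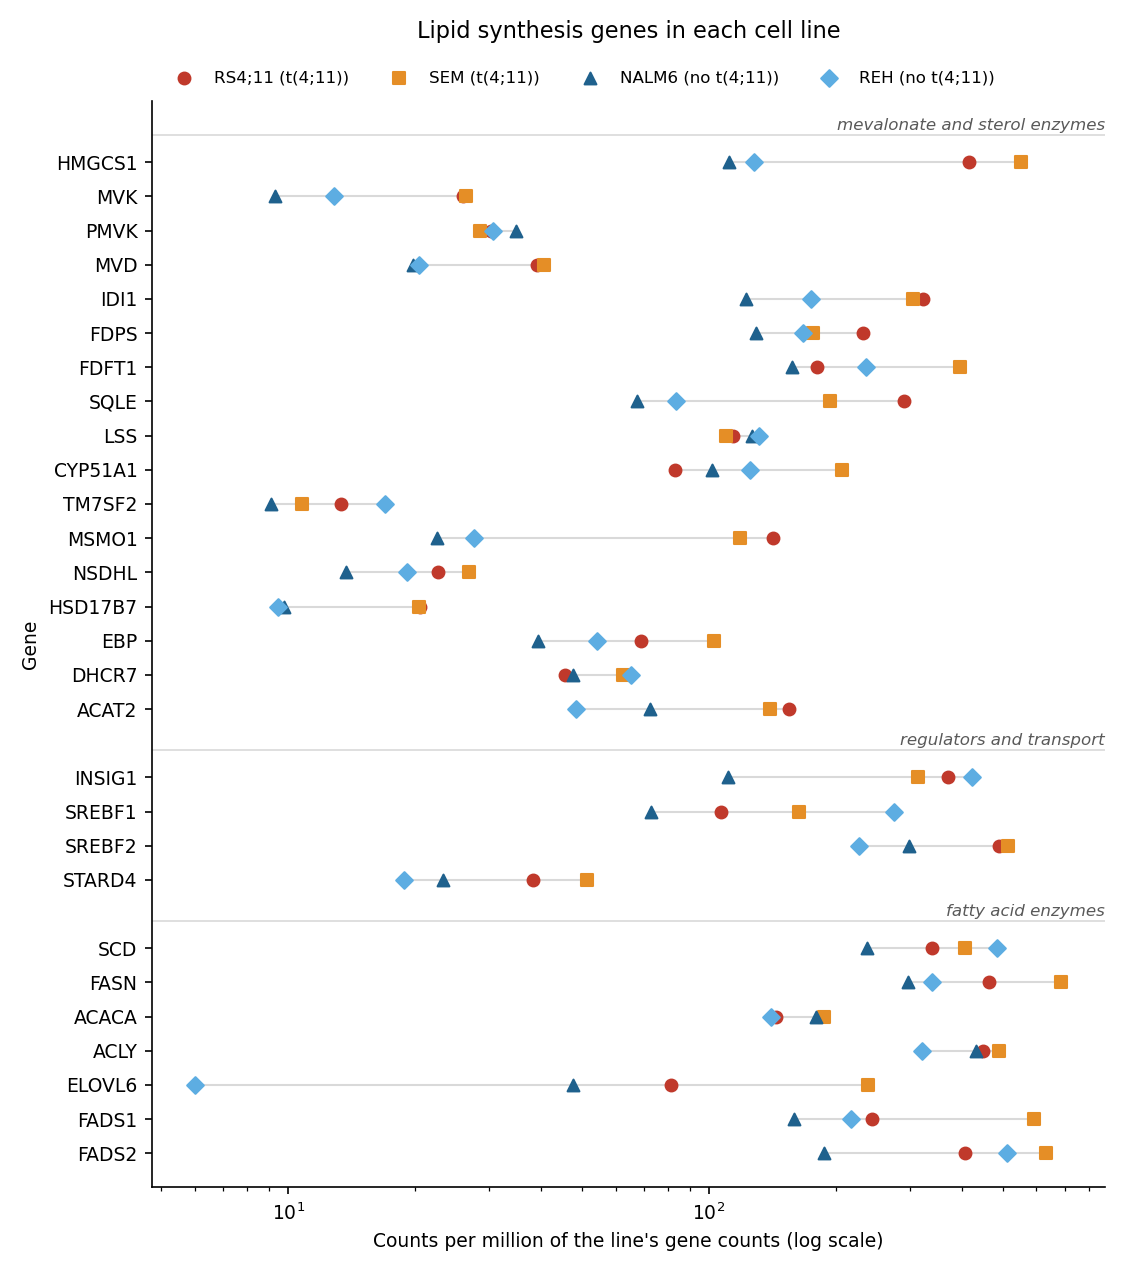
CPM of the 28 genes in each line on a log axis, grouped by role, with 1 symbol per line and a grey bar spanning the 4 values. For HMGCS1, SQLE and MSMO1 both translocation lines stand well apart from both controls, while ELOVL6 spreads from 6.02 CPM in REH to 239 CPM in SEM.

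Sterol synthesis genes were mostly at higher levels in the translocation lines than in the lines without the translocation. In 17 of the 28 genes both translocation lines stood above both controls (60.7%), against 19.0% of the 13,844 genes tested, and in 2 genes, PMVK and LSS, they stood below (7.14%, against 28.3%). By role, the 17 were 11 of the 17 sterol enzymes, 2 of the 4 regulators and carriers and 4 of the 7 fatty acid enzymes. The median log2 fold change of t(4;11) over control was 0.82 for the 28 genes and -0.02 for all genes tested. It was 0.97 for the 17 mevalonate and sterol enzymes, 0.75 for the 4 regulators and carriers and 0.67 for the 7 fatty acid enzymes. All 28 genes passed the filter on low counts.

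At an adjusted p under 0.05, 0 of the 28 genes passed the quasi-likelihood test of edgeR, and so did 0 of all genes tested (0.0%), and the members' adjusted p lay between 0.234 and 0.996. At an unadjusted p under 0.05 it gave 12 of the 28 genes as higher (42.9%), against 6.18% of all genes, and 0 as lower, against 5.87%. Without SEM the median log2 fold change was 0.635 for the 28 genes and -0.06 for all genes in that fit. By the exact test of edgeR 3 genes were higher at an adjusted p under 0.05 (10.7%, against 2.02% of all genes) and 0 were lower (against 1.16%). DESeq2 called 11 of the 28 higher (39.3%, against 5.32%) and 0 lower (against 5.06%). These DESeq2 shares are of the 13,038 genes that it gave an adjusted p. At an unadjusted p under 0.05 the exact test gave 10 as higher (35.7%, against 4.67%) and DESeq2 14 (against 9.7%), with 0 lower by either (against 4.56% and 9.87%). A log2 fold change of at least 1 was seen in 12 genes (42.9%, against 10.3%) and one of -1 or less in 0 (against 14.8%). The authors' deposited DESeq table called HMGCS1, SQLE and MSMO1 higher (10.7%, against 0.934%). The authors' deposited Cuffdiff table called those 3 and ELOVL6 (14.3%, against 1.23%), and 0 of the 28 were lower in either of the authors' deposited tables (against 0.63% and 1.11%). The spread that these p-values measure is that among lines from unlike leukemias.

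**Figure D2:**
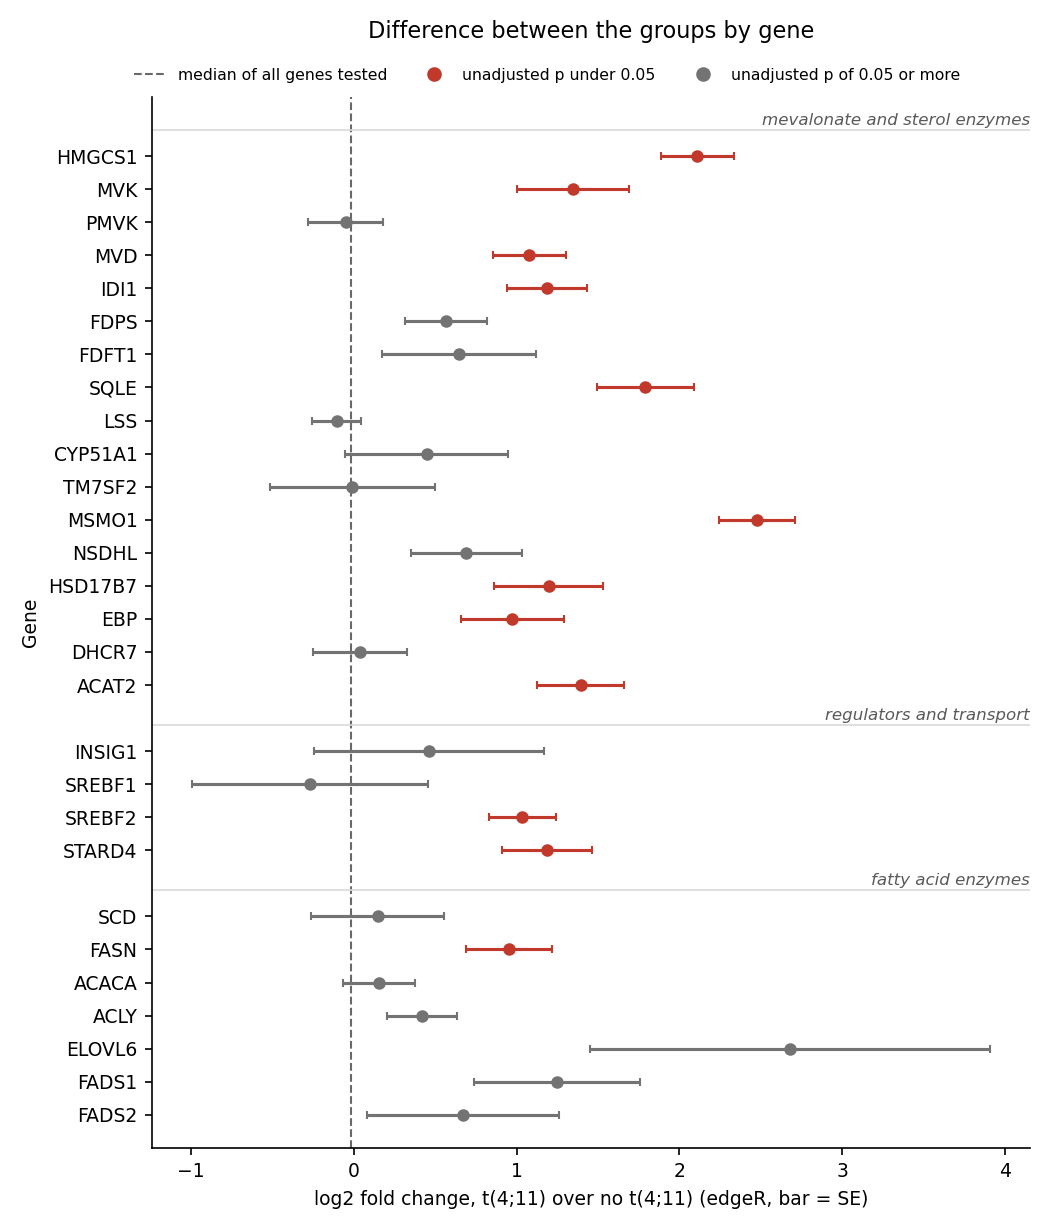
Log2 fold change of t(4;11) over no t(4;11) for each gene (edgeR, bars are standard errors), with the median of all genes tested (-0.02) as a dashed line. The 12 genes in red had an unadjusted p under 0.05, and all of them lie to the right of the line.

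The pathway opens with ACAT2, which joins acetyl-CoA units, and HMGCS1, the cytosolic HMG-CoA synthase. HMGCS1 (chromosome 5, 43,289,493 to 43,313,595 in hg19) reached 415 CPM in RS4;11 and 550.1 in SEM, compared with 111 in NALM6 and 128 in REH. Both translocation lines stood over 3-fold above the higher control. Its log2 fold change was 2.11 (SE 0.22, adjusted p = 0.269 by edgeR), and it ranged from 1.92 to 2.30 when each line was left out. In the authors' deposited tables it had a DESeq adjusted p of 0.000383 and a Cuffdiff q of 0.00418. ACAT2 was at 155 (RS4;11) and 139 CPM (SEM), and at 72.4 (NALM6) and 48.2 CPM (REH), with no overlap (log2 ratio 1.39, SE 0.27, adjusted p = 0.314 by edgeR). ACAT2 lies tail to tail with the chaperonin gene TCP1, and reads where the pair overlap cannot be told apart without strand. TCP1 itself stood at 373 CPM in RS4;11 and 386 in SEM, while NALM6 had 341 CPM and REH 281 CPM.

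Mevalonate is then phosphorylated in successive steps and decarboxylated. MVK, mevalonate kinase, reached 26.1 CPM in RS4;11 and 26.5 in SEM, compared with 9.30 in NALM6 and 12.8 in REH (log2 ratio 1.35, SE 0.34, adjusted p = 0.360 by edgeR). MVD, the decarboxylase that makes isopentenyl diphosphate, was at 38.9 (RS4;11) and 40.5 CPM (SEM), and at 19.8 (NALM6) and 20.5 CPM (REH), so that the lines of each group nearly coincided (log2 ratio 1.08, SE 0.22, adjusted p = 0.326 by edgeR). PMVK, the phosphomevalonate kinase that acts between them, stood at 30.3 CPM in RS4;11 and 28.5 in SEM, while NALM6 had 34.8 CPM and REH 30.7 CPM. Its 4 values span only 1.22-fold and its log2 fold change was -0.05 (SE 0.23), turning to 0.016 without SEM and 0.041 without NALM6. The groups of PMVK were apart only under scaling by column sums and overlapped under TMM scaling.

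IDI1, the isomerase of isopentenyl diphosphate, reached 323 CPM in RS4;11 and 305 in SEM, compared with 122 in NALM6 and 174 in REH (log2 ratio 1.19, SE 0.24, adjusted p = 0.326 by edgeR). FDPS makes farnesyl diphosphate, the branch point toward sterols, prenylated proteins and dolichol. It was at 232 (RS4;11) and 177 CPM (SEM), and at 129 (NALM6) and 168 CPM (REH), and SEM stood only just above REH (log2 ratio 0.57, SE 0.25). IDI1 shares its locus with IDI2 and IDI2-AS1, and FDPS with RUSC1 and RUSC1-AS1, so part of their counts may belong to those genes.

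The first steps committed to sterol are squalene synthase, FDFT1, and squalene epoxidase, SQLE, a rate-controlling oxygen-dependent enzyme. SQLE (chromosome 8, 126,010,720 to 126,034,525 in hg19) stood at 291 CPM in RS4;11 and 194 in SEM, while NALM6 had 67.5 CPM and REH 83.4 CPM. The lower translocation line stood more than 2-fold above the higher control. Its log2 fold change was 1.79 (SE 0.30, adjusted p = 0.310 by edgeR), and in the authors' deposited tables its DESeq adjusted p was 0.0273 and its Cuffdiff q 0.00748. FDFT1 reached 181 CPM in RS4;11 and 395 in SEM, compared with 158 in NALM6 and 236 in REH. RS4;11 lay between the controls, and the log2 fold change of 0.64 (SE 0.47) became 0.00485 without SEM.

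LSS closes squalene into lanosterol, and CYP51A1 removes the first methyl group from that ring system. LSS was at 114 (RS4;11) and 109.8 CPM (SEM), and at 127 (NALM6) and 132 CPM (REH). The translocation lines stood just below the controls, with a log2 fold change of -0.11 (SE 0.15, adjusted p = 0.807 by edgeR), and the groups were also apart under TMM scaling. CYP51A1 stood at 82.9 CPM in RS4;11 and 208 in SEM, while NALM6 had 102 CPM and REH 125 CPM. The translocation lines were thus the lowest and the highest of the 4, and the log2 fold change of 0.45 (SE 0.50) turned to -0.33 without SEM.

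MSMO1, the sterol C4-methyl oxidase, acts later than CYP51A1 and differed most among the sterol enzymes. MSMO1 (chromosome 4, 166,248,818 to 166,264,314 in hg19) reached 142 CPM in RS4;11 and 118 in SEM, compared with 22.6 in NALM6 and 27.6 in REH. Averaged by group this was 130.2 ± 16.8 CPM with the translocation and 25.1 ± 3.49 CPM without it (SD, n = 2 each), 5.19-fold apart, with no overlap. The log2 fold change of 2.48 (SE 0.23, adjusted p = 0.234 by edgeR) stayed between 2.33 and 2.63 when each line was left out. In the authors' deposited tables MSMO1 had a DESeq adjusted p of 9.13e-05 and a Cuffdiff q of 0.0253. NSDHL and HSD17B7 complete the C4 demethylation begun by MSMO1. NSDHL was at 22.7 (RS4;11) and 26.9 CPM (SEM), and at 13.7 (NALM6) and 19.2 CPM (REH) (log2 ratio 0.69, SE 0.34). HSD17B7 stood at 20.6 CPM in RS4;11 and 20.5 in SEM, while NALM6 had 9.79 CPM and REH 9.44 CPM (log2 ratio 1.20, SE 0.33, adjusted p = 0.380 by edgeR). It shares sequence with the pseudogene HSD17B7P2, which reached 10.4 CPM in RS4;11 and 6.87 in SEM, compared with 5.51 in NALM6 and 2.15 in REH, so the split of reads between the pair is uncertain.

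Other enzymes of the pathway, not all of them late, shift and reduce double bonds of the sterol. EBP, the sterol isomerase, was at 69.1 (RS4;11) and 103 CPM (SEM), and at 39.2 (NALM6) and 54.3 CPM (REH) (log2 ratio 0.97, SE 0.32, adjusted p = 0.400 by edgeR). TM7SF2, a sterol C14-reductase, stood at 13.3 CPM in RS4;11 and 10.8 in SEM, while NALM6 had 9.12 CPM and REH 17.0 CPM, with both t(4;11) values inside the control range. DHCR7, which makes cholesterol from 7-dehydrocholesterol, reached 45.5 CPM in RS4;11 and 62.4 in SEM, compared with 47.6 in NALM6 and 65.2 in REH, and the groups interleaved. Their log2 fold changes were -0.01 (SE 0.51) for TM7SF2 and 0.036 (SE 0.29) for DHCR7. The sign turned without SEM for both, and also without REH for TM7SF2 (0.50), without NALM6 for DHCR7 (-0.17) and with column sums for DHCR7 (-0.064).

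A further 4 cholesterol genes, a list shortened after its values were seen, are given by their values alone. SC5DL, the older symbol of the lathosterol oxidase SC5D, was at 77.1 (RS4;11) and 68.1 CPM (SEM), and at 35.0 (NALM6) and 39.7 CPM (REH) (log2 ratio 1.06, SE 0.21, adjusted p = 0.315 by edgeR). C14orf1, the human counterpart of the yeast scaffold protein ERG28, stood at 35.6 CPM in RS4;11 and 43.6 in SEM, while NALM6 had 23.7 CPM and REH 26.6 CPM (log2 ratio 0.75, SE 0.24). TMEM97, a sterol-regulated membrane protein, had a log2 fold change of 0.55 and LBR, another C14-reductase, one of 0.093.

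Of the SREBP genes, SREBF2 was higher with the translocation and SREBF1 overlapped between the groups. SREBF2, whose window above holds the sterol response element, reached 489 CPM in RS4;11 and 512 in SEM, compared with 298 in NALM6 and 227 in REH. The groups did not overlap (log2 ratio 1.03, SE 0.21, adjusted p = 0.320 by edgeR). SREBF1 was at 107 (RS4;11) and 163 CPM (SEM), and at 73.0 (NALM6) and 275 CPM (REH). The controls bracketed both translocation lines, and its log2 fold change of -0.27 (SE 0.73) became 0.98 without REH and -0.92 without NALM6. The difference between the fold changes of SREBF1 and SREBF2 was not tested. These counts do not separate the transcripts of SREBF1 that start at different promoters. Small RNA genes lie inside both loci, MIR33B in that of SREBF1 and MIR33A in that of SREBF2.

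INSIG1 encodes the protein that holds SREBPs in the endoplasmic reticulum when sterol is plentiful, and is itself an SREBP target. It stood at 370.3 CPM in RS4;11 and 314 in SEM, while NALM6 had 111 CPM and REH 421 CPM. REH was the highest and NALM6 the lowest line, as for SREBF1, and the log2 fold change of 0.46 (SE 0.71) was 1.73 without REH and -0.20 without NALM6. STARD4, a soluble sterol carrier, reached 38.2 CPM in RS4;11 and 51.2 in SEM, compared with 23.3 in NALM6 and 18.9 in REH (log2 ratio 1.19, SE 0.28, adjusted p = 0.344 by edgeR). STARD4 shares its locus with NREP and LOC100505678. The authors' deposited Cuffdiff table gave it a q of 1.00.

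Of 8 genes whose proteins carry, cut or degrade SREBPs or their partners, an unadjusted p under 0.05 was reached by 0 higher genes and 1 lower gene, against 6.18% and 5.87% of all genes, and their median log2 fold change was -0.07. The lower one was FBXW7, a ubiquitin ligase subunit that marks nuclear SREBPs for breakdown, with 35.2 CPM in RS4;11 and 33.0 in SEM, compared with 51.8 in NALM6 and 61.0 in REH. SYVN1 had the largest difference by size at -0.87 (SE 0.65) and MBTPS2, the site-2 protease, the next at 0.72 (SE 0.46). SCAP, the escort protein, was at 79.9 (RS4;11) and 88.8 CPM (SEM), and at 117 (NALM6) and 49.9 CPM (REH).

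**Figure D3:**
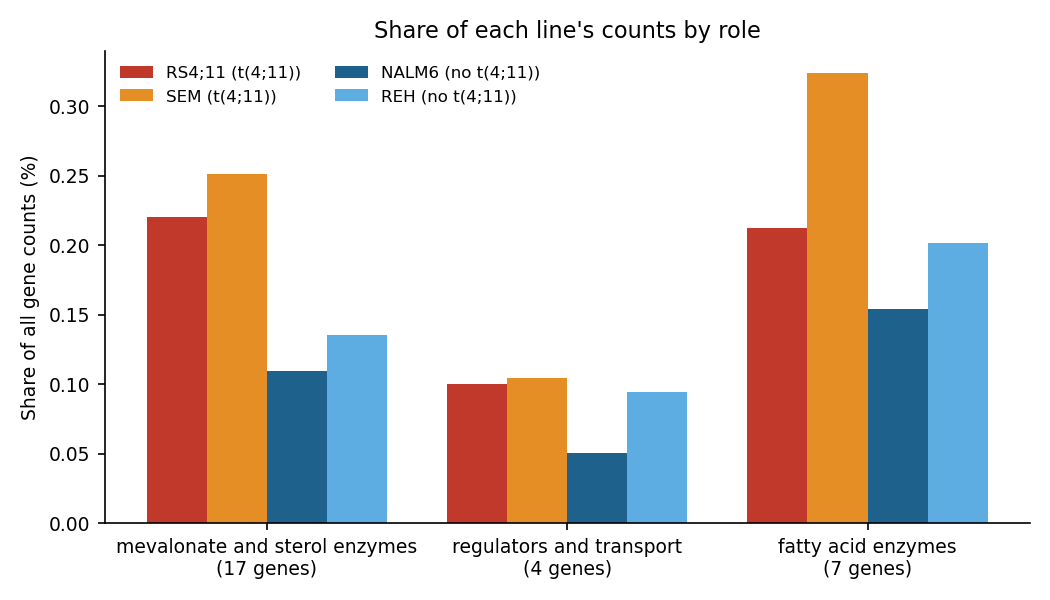
Summed counts of the genes of each role as a percentage of all gene counts, with 1 bar per line. The sterol enzymes took 0.220% and 0.252% of counts in RS4;11 and SEM against 0.109% and 0.135% in NALM6 and REH, and for each role both t(4;11) bars are above both control bars.

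Summed over the 17 sterol enzymes, the level stood at 2203 CPM in RS4;11 and 2515 in SEM, while NALM6 had 1095 CPM and REH 1351 CPM. The means of 2359 ± 221 CPM with the translocation and 1223 ± 181 CPM without it (SD, n = 2 each) were 1.93-fold apart. The 4 regulators and carriers summed to 1005 CPM in RS4;11 and 1041 in SEM, while NALM6 had 505 CPM and REH 942 CPM. The translocation lines were nearly level, REH stood just below them and NALM6 far below, and the means were 1.41-fold apart. Summed over the 7 fatty acid enzymes, the values were 2124 CPM in RS4;11 and 3237 in SEM, compared with 1539 in NALM6 and 2018 in REH. The lower translocation line, RS4;11, stood close to the higher control, REH, and the group means were 1.51-fold apart. The exact two-sided permutation test over lines gave p = 0.333 for each sum, which is the smallest p that 2 lines against 2 allow.

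Fatty acid synthesis starts with ACLY, which makes cytosolic acetyl-CoA from citrate, ACACA, which makes malonyl-CoA, and FASN, the synthase. FASN reached 462 CPM in RS4;11 and 688 in SEM, compared with 297 in NALM6 and 339 in REH, with no overlap (log2 ratio 0.96, SE 0.26, adjusted p = 0.378 by edgeR). ACLY was at 448 (RS4;11) and 489.6 CPM (SEM), and at 430.6 (NALM6) and 321 CPM (REH). RS4;11 and NALM6 were nearly level, and the log2 fold change was 0.42 (SE 0.22). ACACA stood at 145 CPM in RS4;11 and 187 in SEM, while NALM6 had 179 CPM and REH 141 CPM, so each group held 1 higher and 1 lower line (log2 ratio 0.15, SE 0.22). The sign for ACACA turned to -0.019 without SEM and -0.014 without REH.

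ELOVL6 extends palmitate to stearate and varied more between lines than any other of the 28 genes. It reached 81.1 CPM in RS4;11 and 239 in SEM, compared with 47.6 in NALM6 and 6.02 in REH, a range of 39.8-fold. Both translocation lines were above both controls, but REH had only 0.126 times the level of NALM6. Its log2 fold change, 2.68 with SE 1.23 and adjusted p = 0.494 by edgeR, was 1.84 without REH, 4.83 without NALM6 and 1.72 without SEM. The authors' deposited Cuffdiff table gave a q of 0.0134 and their DESeq table an adjusted p of 0.897.

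The desaturases place double bonds in fatty acids. SCD, which makes oleate, was at 339 (RS4;11) and 405 CPM (SEM), and at 238 (NALM6) and 483 CPM (REH), with the controls outside the translocation lines on both sides. Its log2 fold change of 0.15 (SE 0.41) turned to -0.28 without NALM6. FADS1 and FADS2 carry out the delta-5 and delta-6 desaturation of polyunsaturated fatty acids and lie side by side on chromosome 11 on opposite strands. The RefSeq start sites matched here (GRCh38.p14) are 599 and 800 bases apart, since FADS2 has a pair of them. The counted loci in hg19 are further apart, since that of FADS1 ends at 61,584,529 and that of FADS2 begins at 61,595,713. The windows searched for FADS2 may thus not belong to the transcripts counted. FADS1 stood at 244 CPM in RS4;11 and 593 in SEM, while NALM6 had 159 CPM and REH 217 CPM (log2 ratio 1.25, SE 0.51, adjusted p = 0.457 by edgeR). The groups were apart, but the value was 0.50 without SEM. FADS2 reached 405 CPM in RS4;11 and 634 in SEM, compared with 188 in NALM6 and 511 in REH, with RS4;11 below REH (log2 ratio 0.67, SE 0.59, and 0.12 without NALM6).

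Among 29 further genes of fatty acid synthesis, elongation and activation, 24 passed the filter on low counts, and an unadjusted p under 0.05 was reached by 1 higher gene and 1 lower gene, against 6.18% and 5.87% of all genes. ELOVL5, an elongase of polyunsaturated fatty acids, was at 201 (RS4;11) and 266 CPM (SEM), and at 172 (NALM6) and 166 CPM (REH) (log2 ratio 0.56, SE 0.20). FADS3, a relative of FADS1 and FADS2, went the other way with 18.8 CPM in RS4;11 and 9.64 in SEM, compared with 313 in NALM6 and 54.6 in REH. Its log2 fold change was -3.58 (SE 1.05, adjusted p = 0.382 by edgeR), and the authors' deposited Cuffdiff table called it lower (q = 0.00748), while their DESeq table gave an adjusted p of 1.0. ELOVL2, which extends long polyunsaturated fatty acids, stood at 0 CPM in RS4;11 and 2.91 in SEM, while NALM6 had 7.89 CPM and REH 43.6 CPM. The median log2 fold change of the 24 genes was 0.25.

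Lines of the same group also differed from each other. SEM exceeded RS4;11 at least 2-fold in FDFT1, CYP51A1, ELOVL6 and FADS1 (14.3% of the 28 genes, against 11.7% of all genes tested), and RS4;11 exceeded SEM at least 2-fold in none (against 11.4%). REH exceeded NALM6 at least 2-fold in INSIG1, SREBF1, SCD and FADS2 (14.3%, against 18.2%). The ratios of REH over NALM6 were 3.80 for INSIG1, 3.77 for SREBF1, 2.72 for FADS2 and 2.03 for SCD. NALM6 exceeded REH at least 2-fold in ELOVL6 alone (3.57%, against 11.3%). With 1 library per line these ratios have no replicate check.

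Counted by line, SEM was the highest of the 4 in 15 of the 28 genes (53.6%, against 22.0% of all genes tested) and RS4;11 in 6 (21.4%, against 17.3%). REH was the highest in 6 (21.4%, against 32.3%) and NALM6 in PMVK alone (3.57%, against 28.4%). NALM6 was the lowest line in 17 genes (60.7%, against 23.4%) and REH in 7 (25.0%, against 25.3%). RS4;11 and SEM were each the lowest in 2 (7.14%, against 24.5% and 26.8%).

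**Figure D4:**
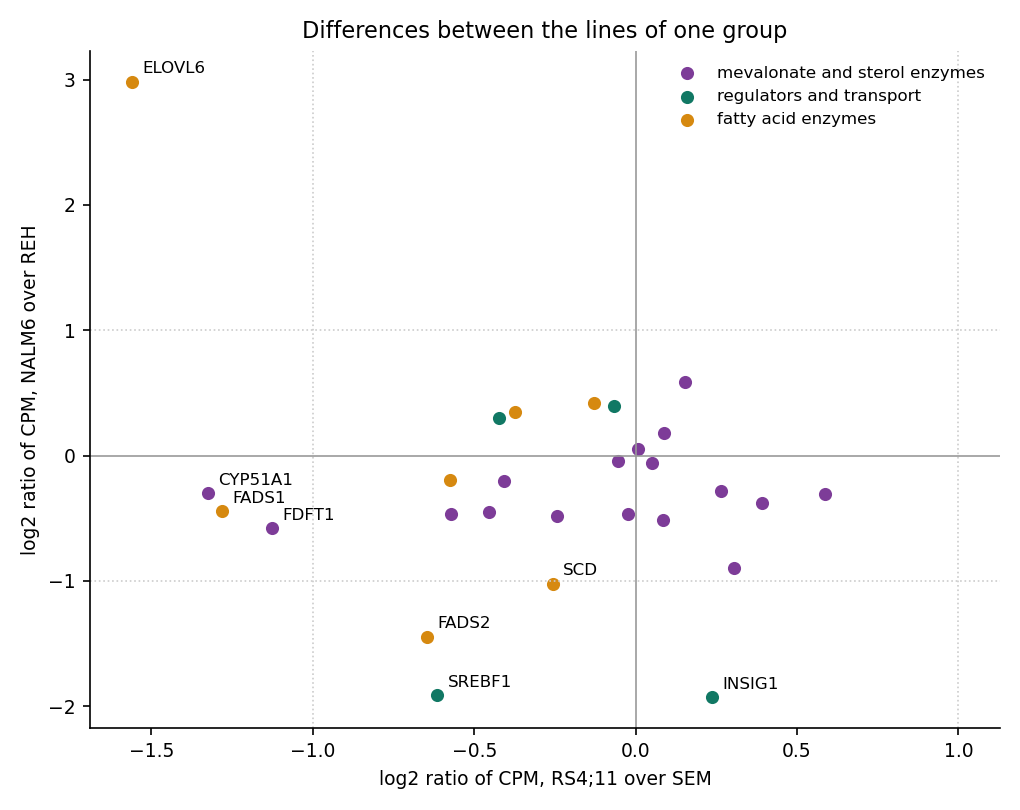
Log2 ratio of CPM between the lines of each group for the 28 genes, RS4;11 over SEM on the x axis and NALM6 over REH on the y axis, coloured by role, with dotted lines at 2-fold. Genes named in the plot differed at least 2-fold within a group, and ELOVL6 is the one gene past 2-fold on both axes.

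The liver X receptors (LXRs) drive genes of sterol export when sterol is high, and 2 such exporters were lowest in SEM. ABCA1, the exporter that loads cholesterol onto lipoproteins, reached 8.85 CPM in RS4;11 and 0.863 in SEM, compared with 4.28 in NALM6 and 123 in REH, so REH stood far above the other lines. ABCG1, another exporter, had 0.424 CPM in RS4;11 and 0 counts in SEM, while NALM6 had 63.3 CPM and REH 15.8 CPM. Its fitted log2 fold change of -7.35 (SE 2.13, adjusted p = 0.382 by edgeR) depends on how the 0 is handled. Among the 8 genes of LXR action and efflux, an unadjusted p under 0.05 was reached by 0 higher genes and by ABCG1 as lower, against 6.18% and 5.87% of all genes. The receptors themselves were close, at a log2 fold change of 0.08 (SE 0.35) for NR1H2 and 0.0031 (SE 0.54) for NR1H3.

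Levels of different genes can be compared only per length, in the FPKM of the authors' deposited Cuffdiff table, which gives 1 value per group. In t(4;11) 21 of the 28 genes lay above the 75th percentile of the 14,203 genes that table tested, and 18 did in the controls. FADS2 had the highest FPKM of the 28 genes with the translocation, at 175. Without it FADS2, at 110.4, and FDPS, at 110.2, were level at the top. MSMO1 stood at 64.3 FPKM with the translocation and 11.7 FPKM without, at percentiles 91.8 and 55.2 of the tested genes. HMGCS1 stood at 146 FPKM with the translocation, ranking 5 of the 28 genes, and at 33.9 FPKM without it, ranking 15. The lowest of the 28 were TM7SF2 with the translocation, at 8.49 FPKM, and MVK without it, at 5.25 FPKM.

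**Figure D5:**
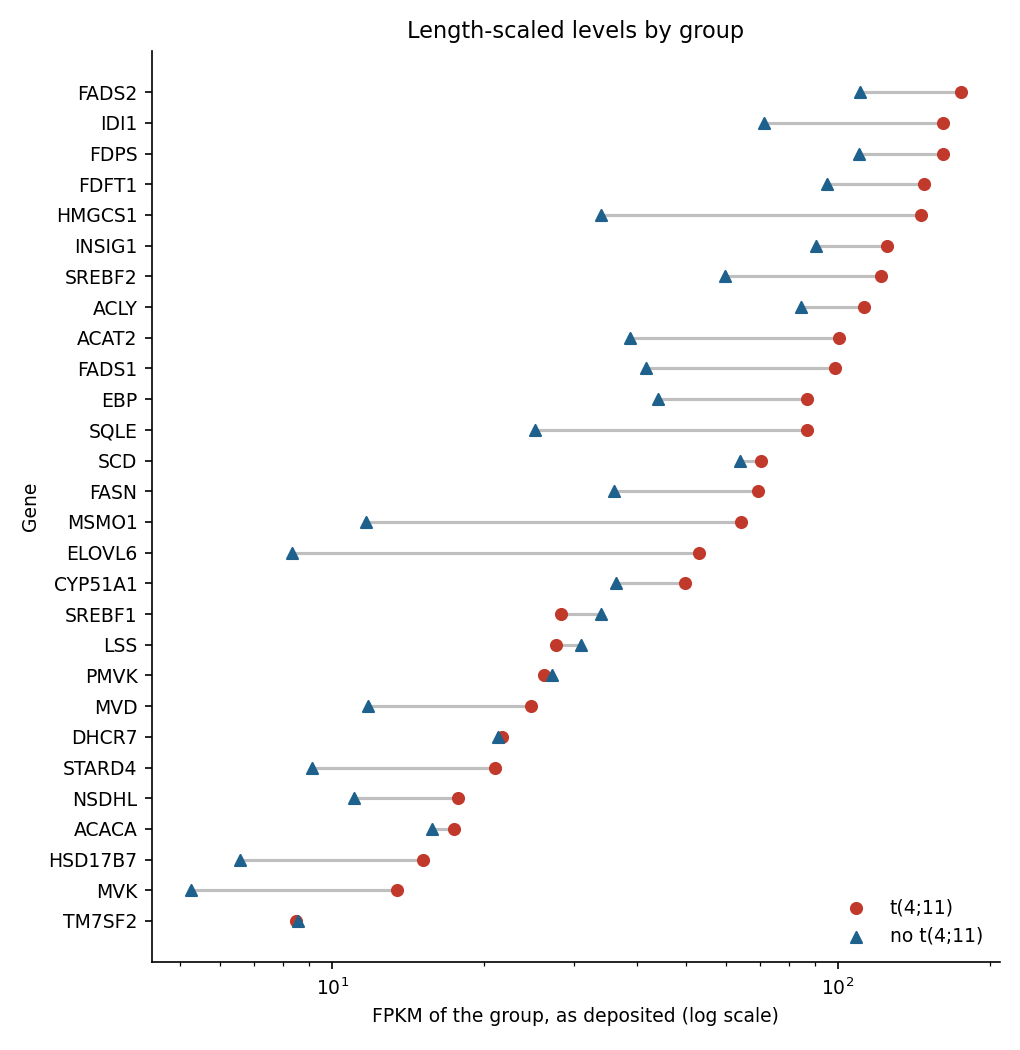
FPKM of the 28 genes in each group as deposited by the authors (log axis, 1 value per group, no replicate error), ordered by the t(4;11) value. FADS2 has the highest t(4;11) value and is level with FDPS at the highest control value. HMGCS1, MSMO1 and ELOVL6 have long gaps between their t(4;11) and control values.

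The genes called in a deposited table were set beside their chromosomal neighbours within 1 Mb. Around HMGCS1 11 genes were tested, with a median log2 fold change of 0.25, and in 4 of them both translocation lines stood above both controls (against 19.0% of all genes). Around SQLE 11 genes had a median of 0.46, with 4 above. Around MSMO1 the 2 tested neighbours had log2 fold changes of 0.62 and 0.96. Around ELOVL6 11 genes had a median of -0.50, with none above. The copy number of these regions was not analysed here, and its part in the values was not tested.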

How the data were processed

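Total RNA of 4 lines was extracted with TRI Reagent and made into libraries with a TruSeq RNA kit, per the labels' protocols. Such a kit does not mark strand. Reads were handled with HTSeq, Cuffdiff, DESeq, TopHat, TopHat2 2.0.4 and CASAVA 1.8.2 on hg19, per the submitters' processing notes. Their settings and annotation were not given in the sources used. Of the 2 deposited tables, one has whole-number counts for each gene in each line. It also holds the authors' normalized counts, a signal equal to the count over a size factor, with a fold change as a ratio of control over t(4;11) and DESeq p-values. The second deposited table holds Cuffdiff FPKM per group, a log2 fold change with control on top, p-values and q-values. Signs were turned so that positive is higher with t(4;11). Loci are as deposited in hg19, with starts counted from 1, and span what Cuffdiff grouped.

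CPM used column sums (33,620,574 to 84,212,986 counts). Differences were tested in edgeR 4.0.16 under R 4.3.3 with TMM, filterByExpr and a two-sided quasi-likelihood F test. Benjamini-Hochberg adjustment ran over 13,844 genes, with a threshold of 0.05. The fit had 2 residual degrees of freedom and added a prior of 1.75 drawn from all genes. The spread behind each p-value is thus drawn partly from other genes. The standard error is the log2 fold change over the square root of F. DESeq2 1.42.0, edgeR's exact test, other scalings, no filter and leaving out each line were alternatives. Reads have no molecular identifiers, so a floor of 3 counts (0.0356 to 0.0892 CPM) covers counting error only. The fits were also run on simulated data, but that outcome is not reported here and no result above rests on it. Promoters and symbols came from RefSeq tables of GRCh38.p14, with no coordinates carried between builds. Figures used matplotlib 3.10.9.

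The labels name no batch and the replicate numbers follow listing order. Nothing in the labels says that libraries were repeated, and p-values measure the spread between lines. Members and lists were chosen with earlier results of these data known, so no adjustment over a list and no set test was made. Values in every line were given for members called in a deposited table, with a log2 fold change of at least 1 in size, with groups that did not overlap, or that are regulators. In each pathway list, genes called in a deposited table and the 2 largest differences were named. Genes at an unadjusted p under 0.05, SCAP, NR1H2, NR1H3, TMEM97 and LBR were added after their values were seen. Marker lists were read by their sums and by markers at or near 0. Some further genes of the sterol pathway are not reported here.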

Additional observations from a re-analysis of the deposited data

How the results depend on the processing

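No paired analysis was possible because the replicate numbers follow listing order and the labels pair no lines. At an adjusted p under 0.05 the count over all genes was 0 by edgeR's quasi-likelihood test with TMM, RLE or column-sum scaling and without each line, 5 without the low-count filter (0 of the 28 genes), 441 by the exact test (3 of the 28) and 1354 by DESeq2 (11 of the 28). The 12 genes higher at an unadjusted p under 0.05 ranged from 6 (without SEM) to 11 when a line was left out and from 10 to 14 under the other settings. The median log2 fold change when a line was left out ranged from 0.63 (without SEM) to 1.08 (without RS4;11) for the 28 genes, from 0.76 (without NALM6) to 1.10 (without RS4;11) for sterol enzymes and from 0.38 (without SEM) to 1.05 (without REH) for fatty acid enzymes. The log2 ratio of summed CPM of regulators and carriers, 0.50, ranged from 0.12 (without NALM6) to 1.02 (without REH). The genes below both controls were 2 with column sums, 1 with RLE and 1 with TMM scaling. TMM scaling of levels was added after the data were seen. The genes below were 2 to 7 (without NALM6) when a line was left out. Those above were 17 under each scaling and 17 (without SEM) to 23 (without REH) when a line was left out. A group of 1 line separates from the other more easily. Shares of all genes (28.3% below, 19.0% above) were counted only with column sums and all 4 lines. The counts under other settings thus have no share of all genes to be judged against. For levels, column sums were the main scaling, so they gave no separate alternative. Column sums in the test shifted the median of all genes by -0.10. Of the 28 genes 20 kept their sign under all 9 alternatives and 8 did not. The sign turned with column sums for DHCR7 (-0.064). Leaving out a line turned the other signs. The log2 fold change of PMVK ranged from -0.14 (without REH) to 0.041 (without NALM6) and was 0.016 without SEM. That of CYP51A1 ranged from -0.33 (without SEM) to 0.97, and that of TM7SF2 from -0.39 to 0.50 (without REH), with 0.16 without SEM. DHCR7 ranged from -0.18 (without SEM) to 0.28, with -0.17 without NALM6. INSIG1 ranged from -0.20 (without NALM6) to 1.73, and SCD from -0.28 (without NALM6) to 0.74. SREBF1 ranged from -0.92 to 0.98 (without REH), with 0.0062 without RS4;11. ACACA ranged from -0.019 (without SEM) to 0.34, with -0.014 without REH. A fit without a line leaves 1 line in a group, which is assumed to vary like the others. The cause of these changes was not tested.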

Other observations

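Genes that use the products of the 2 synthesis pathways were read in the same way. Of 11 genes of the isoprenoid branch, which uses farnesyl diphosphate for ubiquinone, dolichol and protein prenylation, 0 passed an unadjusted p under 0.05 in either direction (against 6.18% higher and 5.87% lower of all genes), and in 6 both t(4;11) lines stood above both controls (against 19.0% of all genes tested). COQ2, an early enzyme of ubiquinone synthesis, reached 16.4 CPM in RS4;11 and 26.1 in SEM, compared with 10.8 in NALM6 and 9.70 in REH (log2 ratio 1.15, SE 0.40). FNTB, the beta subunit of farnesyltransferase, was at 3.03 (RS4;11) and 3.36 CPM (SEM) with t(4;11), and at 1.85 (NALM6) and 2.23 CPM (REH) without it.

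Of 8 genes of sterol storage and transport 7 were tested, and 0 passed, against the same shares. STARD5 stood at 2.29 CPM in RS4;11 and 1.07 in SEM, while NALM6 had 7.67 CPM and REH 2.85 CPM. NPC1, which moves cholesterol out of lysosomes, reached 44.5 CPM in RS4;11 and 92.5 in SEM, compared with 30.7 in NALM6 and 52.8 in REH. For fatty acid oxidation the median over 13 genes was -0.25 on the log2 scale. ACADM, the medium-chain acyl-CoA dehydrogenase, was the one gene with an unadjusted p under 0.05, against 6.18% higher and 5.87% lower of all genes. It stood at 175 CPM in RS4;11 and 172 in SEM, compared with 112 in NALM6 and 125 in REH. Its log2 ratio was 0.65 (SE 0.16, adjusted p = 0.347 by edgeR). CPT1A, which admits long-chain fatty acids to mitochondria, was at 49.2 (RS4;11) and 2.62 CPM (SEM) with t(4;11), and at 124 (NALM6) and 19.7 CPM (REH) without it, and the lines of each group differed more than the groups. Of the 10 proliferation genes, RRM2, a ribonucleotide reductase subunit, was the one with an unadjusted p under 0.05, against the same shares of all genes. It had 389 CPM in RS4;11 and 487 in SEM, compared with 277 in NALM6 and 290.5 in REH (log2 fold change 0.73, SE 0.19). The next largest difference was that of CDK1, the mitotic kinase, at 0.28 (SE 0.20).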
